A study of Danio rerio with 5 samples.

Results

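Genes of the Wnt, Notch, BMP and Hedgehog signalling pathways were described in the upper digestive tract of adult zebrafish that carried a zCdx1b transgene. The genes were taken by symbol, as every probe set whose single annotated gene symbol named a Wnt ligand, a Frizzled receptor, an Sfrp or Dkk inhibitor, an Axin, Lef1 or a Tcf7 factor, a Notch receptor, a Delta or Jagged ligand, a her repressor, a Bmp, a Smad, Chordin or Noggin, or a Hedgehog ligand, Patched, Gli or Smoothened. No Patched probe set was found this way, and the oocyte gene bmp15 was left out by the rule. This gave 100 probe sets for 80 genes among 15502 probe sets on the array, of which 35 probe sets belonged to Wnt, 32 to Notch, 24 to BMP and 9 to Hedgehog signalling. Of these genes, 17 had more than 1 probe set.

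Tissue of 3 fish, 3 months old, was pooled for each of the 5 arrays. Of these, 3 held transgenic and 2 held wild-type tissue, and the labels give AB as the genetic background of both. The transgenic fish came from AB* eggs injected with the construct pmini Tol2-zK5p-zCdx1b-EGFP and Tol2 transposase RNA, and wild-type pools carried neither. The labels do not spell out zK5p, or name the cells in which it is active. The sources used here do not say whether the transgenic fish descend from 1 founder, which sex they were, or where the dissected tissue began and ended. The labels call the pools biological replicates and say no more of how they were kept apart, so p-values measure the spread between these pools.

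Wnt ligands bind Frizzled receptors and either stabilise beta-catenin, which acts with Tcf and Lef factors on target genes, or steer cell polarity and movement through a beta-catenin-independent branch. Notch receptors are cut after binding Delta or Jagged ligands on a neighbouring cell, and the freed domain switches on repressors of the Hairy and Enhancer of split family, called her in zebrafish. BMP ligands act through Smad proteins and are held back by secreted antagonists, while Hedgehog ligands relieve the block on Smoothened and so control Gli factors. In the digestive tract these pathways pattern the tube and keep progenitor and differentiated cells of the epithelium in balance.

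Values are the deposited log2 expression values, and all changes are given as transgenic minus wild type on the log2 scale. A background bound was set for each array as the highest value among 44 controls for bacterial and tag sequences, and lay between 3.64 and 4.13. Most signalling genes read close to it. Of the 100 probe sets, 38 were at or below the bound on all 5 arrays, against 20.2% of all probe sets, and 32 were above it on all 5, against 53.2% of all. Probe sets were tested where 2 or more arrays read them at or above the array's 40th percentile, a filter that 39 of the 100 passed and 61 did not, against 33.3% of all probe sets. A probe set that is bright in only 1 group can pass this filter through that group, so counts among those that passed carry no weight of their own.

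**Figure D1:**
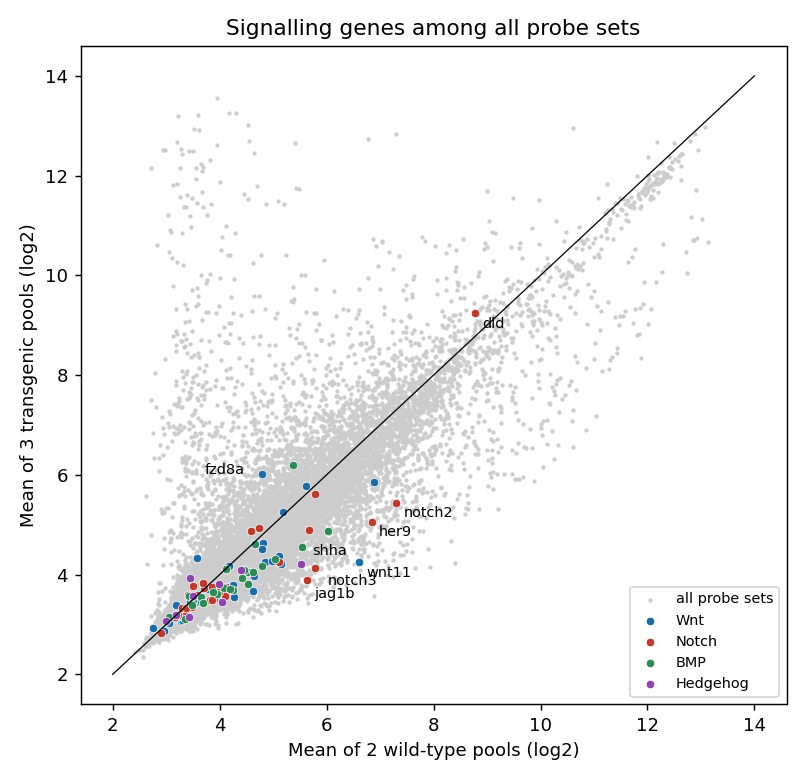
Each point is a probe set, with the mean log2 value of the 2 wild-type pools on the horizontal axis and of the 3 transgenic pools on the vertical axis. Grey points are all 15502 probe sets, coloured points are the 100 signalling probe sets by pathway, and the line marks equal means. Most signalling genes lie at the dim end, and those furthest from the line, wnt11, notch2, her9, jag1b, notch3 and shha, lie below it.

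Of the 100 probe sets, 15 passed limma's test at an adjusted p of 0.05, of which 13, for 12 genes, were lower in transgenic pools and 2, both for the Frizzled gene fzd8a, were higher. A further 24 were tested without passing. Over all 15502 probe sets, 14.5% passed, with 7.79% lower and 6.73% higher. The total share that passed, at 15 of 100, thus lay near that of the whole array. By direction, the share that fell, at 13 of 100, was above it and the share that rose, at 2 of 100, below it. These differences in share were not tested. The genes that fell were wnt11, fzd10 and tcf7l1b of the Wnt pathway, notch2, notch3, jag1b, jag2b and her9 of the Notch pathway, bmp3, smad6a and smad7 of the BMP pathway, and shha of the Hedgehog pathway. In these bulk samples, fewer cells of a type and less RNA per cell cannot be told apart. Among the 10335 probe sets that passed the filter, 21.8% passed the test, 11.7% lower and 10.1% higher. The 15 of 100 above counts the 61 signalling probe sets under the filter, so it is not comparable with this share. Of the 39 that passed the filter, 13 were lower and 2 higher, counts that carry no weight of their own. Without a filter, which tests all 100, 12 were lower and 2 higher, against 6.85% and 6.2% of all.

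The median log2 change of the 100 probe sets was -0.19, beside -0.07 for all probe sets, and 75 of them had a negative change, beside 59.9% of all. Transgenic and wild-type values did not overlap in 46 of them, with 40 lower and 6 higher in transgenic pools, beside 25.5% and 15.3% of all probe sets. Among dim probe sets the wild-type arrays differed from each other. All 38 probe sets at or below the bound on every array read higher in wild-type pool 2 than in wild-type pool 1. The bound that picked them was 3.64 in wild-type pool 1 and 4.13 in wild-type pool 2, which favours this order. The matching share over all probe sets at or below the bound was not counted. The median difference of the 38 from the transgenic mean was 0.25 in wild-type pool 2 and -0.15 in wild-type pool 1. Wild-type pool 2 also had the narrowest spread of values over the array, with an SD of 1.58 against 1.70 to 1.79 on the others, and the highest background bound, and its mean over hybridisation spike-in controls was 9.99 against 8.52 to 9.19. The number of signalling probe sets that fell was 8, 3 and 7 without transgenic pool 1, 2 and 3. Over all probe sets, the number that passed in either direction was 1780, 979 and 1795 in these fits, against 2250 with all pools. Calls thus became fewer over the whole array too, most of all without transgenic pool 2. The 3 signalling probe sets that still fell without transgenic pool 2 were those of notch3, jag1b and shha. Both fzd8a probe sets passed without transgenic pool 3, and neither passed with any other pool left out. The 1 signalling probe set that rose without wild-type pool 1 was of smad5.

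**Figure D2:**
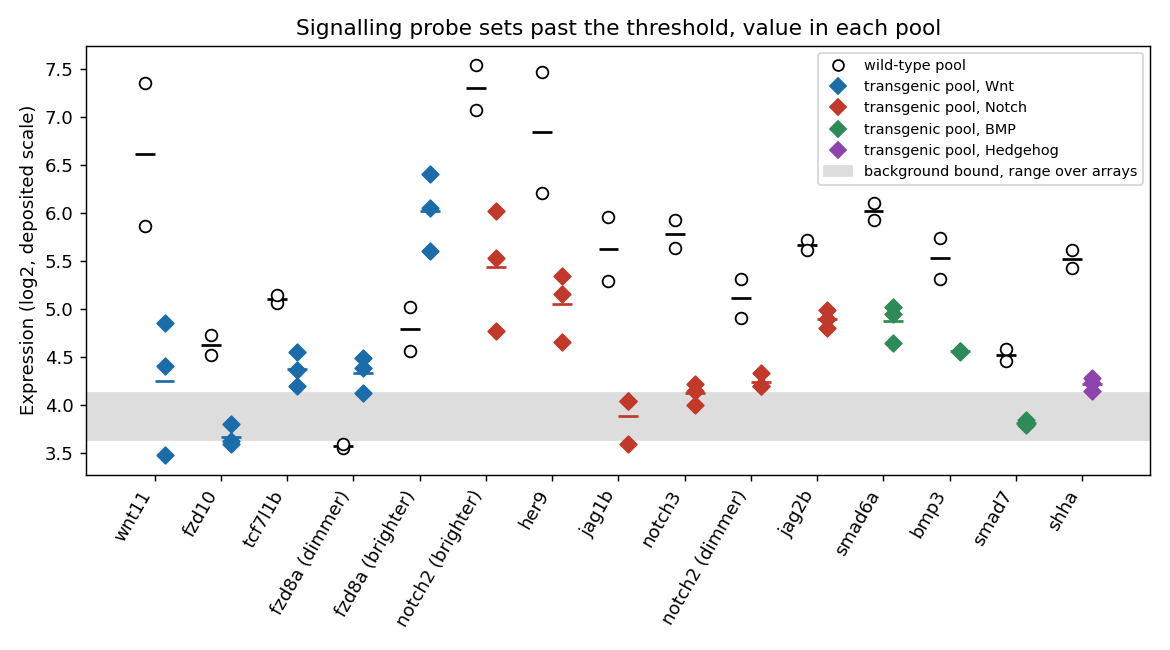
Log2 expression in each pool of the 15 signalling probe sets past the threshold, with open circles for the 2 wild-type pools, diamonds for the 3 transgenic pools coloured by pathway, and short lines for the group means. The grey band spans the background bound over the 5 arrays. In all 15 the groups are apart, with fzd8a the gene that is higher in transgenic pools, and the transgenic values of jag1b, fzd10 and smad7 lie within or near the band.

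Among Wnt ligands, wnt11 had the largest change of all 100 probe sets. Its product belongs to the Wnt11 ligands, best known for the beta-catenin-independent branch that directs cell movement. It read 7.36 and 5.86 in the wild-type pools and 3.48, 4.41 and 4.86 in the transgenic pools, so the groups were apart, with transgenic pool 1 under its background bound and wild-type pool 1 well above wild-type pool 2. The mean was 6.61 ± 1.06 (SD, n = 2) over the wild-type pools and 4.25 ± 0.70 (SD, n = 3) over the transgenic pools. The change was -2.36 (SE 0.56, limma adjusted p = 0.0319), or 5.15-fold lower. With transgenic pool 1 under its bound, this fold is imprecise. Leaving out wild-type pool 1 ended the call, at 0.126 with a change of -1.61, and so did leaving out transgenic pool 2, at 0.0664 (limma adjusted p-values, as for all such values that follow). The probe sets of the other 9 Wnt ligands, which were wnt1, wnt2, wnt2ba, wnt4, wnt4b, wnt5b, wnt8b, wnt10a and wnt10b, did not reach the filter. Their values lay between 2.73 and 4.17, and 8 of the 9 were at or below the bound on every array. The exception, wnt5b, read 4.17 and 4.08 in the wild-type pools and 3.66, 3.65 and 3.64 in the transgenic pools, a change of -0.47 with an adjusted p of 0.0859 by limma without a filter. Of these values, only that of wild-type pool 1 was above its bound.

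Frizzled receptors moved in both directions. The receptor gene fzd8a was higher with both of its probe sets. The brighter read 4.56 and 5.02 in the wild-type pools and 6.41, 6.05 and 5.60 in the transgenic pools, a change of 1.23 (SE 0.31, limma adjusted p = 0.0369) or 2.35-fold, with transgenic pool 1 highest and the groups apart. The dimmer read 3.55 and 3.60 in the wild-type pools and 4.49, 4.39 and 4.12 in the transgenic pools. Both its wild-type values were under the bound, so its change of 0.76 (SE 0.18, limma adjusted p = 0.0304) stands for at least 1.36-fold higher. The brighter probe set was not past the threshold after quantile normalization, at 0.0514, nor without transgenic pool 1, transgenic pool 2, wild-type pool 1 or wild-type pool 2, at 0.0621, 0.127, 0.128 and 0.0559. For the dimmer these 4 adjusted p-values were 0.0960, 0.166, 0.0747 and 0.0598.

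The receptor gene fzd10 fell. It read 4.73 and 4.53 in the wild-type pools and 3.80, 3.62 and 3.60 in the transgenic pools, and all 3 transgenic values were at or below the bound, so it was at least 1.78-fold lower, with a log2 change of -0.95 (SE 0.17, limma adjusted p = 0.0123). Its call was lost without transgenic pool 2, at 0.0872, and with the replicate numbers as a block. A second probe set of fzd10, under the filter, had 4.31 and 4.18 against 3.77, 3.67 and 3.94 in the same order of groups, a change of -0.45 without passing when tested without a filter (adjusted p = 0.137).

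Receptor genes fzd7b and fzd2 were lower in transgenic pools without passing. For the brighter probe set of fzd7b the values were 7.19 and 6.59 in the wild-type pools and 5.60, 5.81 and 6.15 in the transgenic pools, a change of -1.04 (SE 0.30, limma adjusted p = 0.0588), and for the dimmer 5.73 and 4.55 against 3.83, 4.30 and 4.50, a change of -0.93 (SE 0.39, limma adjusted p = 0.149). The wild-type pools differed from each other here too, with pool 1 higher. The brighter probe set passed after quantile normalization, at 0.0163, with the 60th percentile filter, at 0.0469, without a trend, at 0.0476, and without wild-type pool 2, at 0.0401, where the dimmer also passed, at 0.0389. For fzd2 the values were 5.32 and 4.63 in the wild-type pools and 4.19, 4.29 and 4.35 in the transgenic pools, a change of -0.70 (SE 0.24, limma adjusted p = 0.0915), and it passed without wild-type pool 2, at 0.0225. The paralogue fzd7a read 4.99 in wild-type pool 1 and between 3.36 and 3.84 in the other pools, wild-type pool 2 included, and did not reach the filter. The remaining receptor genes fzd5, fzd8b and fzd9b also stayed under it.

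Among the 100 probe sets, none for a scaffold or secreted inhibitor gene of the Wnt pathway passed. The scaffold genes axin1 and axin2 belong to the complex that marks beta-catenin for destruction, and axin2 is also a widely used readout of beta-catenin signalling. In axin2 the values were 5.16 and 4.46 in the wild-type pools and 4.81, 4.66 and 4.44 in the transgenic pools, which overlap, with a change of -0.17 (SE 0.26, limma adjusted p = 0.705). The 2 probe sets of axin1 had changes of 0.08 and 0.00. In sfrp1a, which binds Wnt proteins, wild-type pool 1 read 5.27, while wild-type pool 2, at 4.03, lay within the transgenic range of 3.74 to 4.21, with a change of -0.67 (SE 0.38, limma adjusted p = 0.272). Without wild-type pool 2 it passed, at 0.0310. The inhibitor genes dkk3b and sfrp5 had changes of 0.16 and -0.27, and dkk1b and dkk2 did not reach the filter.

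Of the nuclear factors of the pathway, tcf7l1b fell. Tcf7l1 proteins bind Wnt target genes and mostly repress them while beta-catenin is absent. The values of tcf7l1b were 5.06 and 5.15 in the wild-type pools and 4.20, 4.37 and 4.55 in the transgenic pools, without overlap, a change of -0.73 (SE 0.18, limma adjusted p = 0.0363). This call was lost when any 1 pool was left out, with adjusted p from 0.0572 to 0.192, and without a filter, at 0.0587. Its paralogue tcf7l1a read 4.79 and 4.91 in the wild-type pools and 4.37, 4.22 and 4.17 in the transgenic pools, a change of -0.59 (SE 0.17, limma adjusted p = 0.0504) just outside the threshold. Both lef1 and tcf7l2 were at or below the bound on all arrays.

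Notch receptors notch2 and notch3 fell. The brighter probe set of notch2 read 7.54 and 7.07 in the wild-type pools and 4.77, 5.53 and 6.02 in the transgenic pools, with transgenic pool 1 lowest and no overlap. Its mean was 7.30 ± 0.33 (SD, n = 2) over the wild-type pools and 5.44 ± 0.63 (SD, n = 3) over the transgenic pools, a change of -1.86 (SE 0.41, limma adjusted p = 0.0254), or 3.64-fold lower. Another probe set of notch2, which read 5.32 and 4.91 in the wild-type pools and 4.20, 4.33 and 4.20 in the transgenic pools, changed by -0.87 (SE 0.19, limma adjusted p = 0.0254). The third, under the filter, did not follow them: it had 3.46 and 3.90 against 4.00, 3.73 and 3.78, with overlap and a change of 0.15. The brighter probe set lost its call without wild-type pool 1, wild-type pool 2 or transgenic pool 2, at 0.108, 0.0589 and 0.0779, and the one with the smaller fall without transgenic pool 1, 2 or 3, at 0.0649, 0.113 and 0.0728.

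For notch3, a receptor known from vascular smooth muscle and from progenitor cells, the values were 5.93 and 5.64 in the wild-type pools and 4.15, 4.22 and 4.01 in the transgenic pools. Each group was tight and the 2 were well apart. The mean was 5.78 ± 0.20 (SD, n = 2) over the wild-type pools and 4.13 ± 0.11 (SD, n = 3) over the transgenic pools, a change of -1.66 (SE 0.19, limma adjusted p = 0.00265) or 3.15-fold lower, and notch3 passed with each pool left out and under all the other settings tried. Transgenic values of notch3 lay little above the background bounds of 3.95, 3.72 and 3.74 in pools 1, 2 and 3, so its fold is imprecise. The receptor genes notch1a and notch1b, with 3 probe sets in all, were at or below the bound on every array.

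The Jagged ligand genes jag1b and jag2b fell, while the Delta genes did not pass. The gene jag1b read 5.96 and 5.30 in the wild-type pools and 3.60, 4.04 and 4.04 in the transgenic pools, and transgenic pool 1 was at the background. It had a mean of 5.63 ± 0.47 (SD, n = 2) over the wild-type pools and 3.89 ± 0.26 (SD, n = 3) over the transgenic pools. The change was -1.73 (SE 0.27, limma adjusted p = 0.00831) or 3.33-fold lower. With transgenic pool 1 at the background, this fold is imprecise. The gene passed under all settings tried. In jag2b, which had 5.72 and 5.61 in the wild-type pools and 4.90, 4.80 and 4.99 in the transgenic pools, the change was -0.77 (SE 0.18, limma adjusted p = 0.0322), and it was lost without transgenic pool 1, 2 or 3, at 0.0933, 0.229 and 0.0785, without wild-type pool 1, at 0.0543, and without a filter, at 0.0583. The paralogue jag1a had 4.21 and 4.00 against 3.67, 3.50 and 3.52, also without overlap but with transgenic values at the background, and did not pass without a filter (change -0.54, adjusted p = 0.0719). Wild-type pool 2 was also under its bound, so only wild-type pool 1 read jag1a above the bound.

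Of the Delta ligands, dld was far above background in every pool. It read 8.84 and 8.69 in the wild-type pools and 9.41, 9.29 and 9.03 in the transgenic pools, with all transgenic pools above both wild-type pools, yet its change of 0.47 (SE 0.21, limma adjusted p = 0.164) did not pass. The brighter 2 of the 3 dlc probe sets had changes of 0.21 (SE 0.21, limma adjusted p = 0.556) and 0.30 (SE 0.17, limma adjusted p = 0.270), the second without overlap, as 4.66 and 4.51 against 4.84, 4.92 and 4.88. The genes dla and dlb were at or below the bound in all pools.

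Of the 11 her genes, with 15 probe sets, only her6 and her9 reached the filter. The repressor gene her9, which in zebrafish embryos is controlled in part by signals other than Notch, read 7.48 and 6.21 in the wild-type pools and 4.66, 5.34 and 5.16 in the transgenic pools. The wild-type pools differed from each other by more than the transgenic pools did, and the groups were apart. Its mean was 6.84 ± 0.89 (SD, n = 2) over the wild-type pools and 5.05 ± 0.36 (SD, n = 3) over the transgenic pools, a change of -1.79 (SE 0.43, limma adjusted p = 0.0322), or 3.46-fold lower. It did not pass without wild-type pool 1, at 0.0812 with a change of -1.16, nor without transgenic pool 1, 2 or 3, at 0.0533, 0.0692 and 0.0604. For her6, a repressor related to mammalian Hes1, the values were 6.17 and 5.39 in the wild-type pools and 5.68, 5.75 and 5.40 in the transgenic pools, which overlap, with a change of -0.17 (SE 0.30, limma adjusted p = 0.751). The other 13 probe sets, for her1, her2, her3, her4.2, her4.5, her5, her7, her8a and her15.2, lay between 2.72 and 4.33. The her4 probe sets of this kind can share sequence between the copies of that gene, so their values may not be specific to 1 copy.

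Among BMP genes the inhibitory Smads and 1 ligand fell. Inhibitory Smads block BMP receptors and are themselves switched on by BMP signalling. The values of smad6a were 6.11 and 5.93 in the wild-type pools and 4.64, 5.02 and 4.95 in the transgenic pools, with each group tight and no overlap, a change of -1.14 (SE 0.21, limma adjusted p = 0.0151) or 2.21-fold lower. Its call was lost without transgenic pool 2, at 0.0754. For smad7, which also restrains TGF-beta signals, the values were 4.58 and 4.46 in the wild-type pools and 3.80, 3.84 and 3.82 in the transgenic pools, near the background in transgenic pools, a change of -0.70 (SE 0.15, limma adjusted p = 0.0236). This call was lost without transgenic pool 1, 2 or 3, at 0.0809, 0.155 and 0.0772, and with the replicate numbers as a block, at 0.246.

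The ligand gene bmp3, whose mammalian product opposes other BMPs, read 5.75 and 5.32 in the wild-type pools and 4.57, 4.56 and 4.55 in the transgenic pools. The 3 transgenic values were nearly equal and lay below both wild-type values, with a change of -0.97 (SE 0.20, limma adjusted p = 0.0205). It did not pass without transgenic pool 2 or 3, at 0.117 and 0.0588, nor with the replicate numbers as a block, at 0.0757. Other ligands did not pass. In bmp5 the values were 4.97 and 5.11 in the wild-type pools and 4.27, 4.59 and 4.06 in the transgenic pools, a change of -0.74 (SE 0.21, limma adjusted p = 0.0550). The 2 brighter probe sets of bmp8a differed in size, at -0.60 (SE 0.17, limma adjusted p = 0.0507) with no overlap and at -0.01 (SE 0.25, limma adjusted p = 0.978) with overlap. The first passed without wild-type pool 1, at 0.0474. The genes bmp2a, bmp2b, bmp4, bmp6 and bmp7a did not reach the filter, and bmp4, bmp6 and bmp7a were at or below the bound on all arrays. The kinase gene bmp2k, matched by its name but encoding no ligand, had a change of -0.47 (SE 0.16, limma adjusted p = 0.0874).

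Smads that carry the signal did not pass. The BMP-activated smad5 was higher, at 5.72 and 5.04 in the wild-type pools and 6.19, 6.11 and 6.27 in the transgenic pools, without overlap, a change of 0.81 (SE 0.27, limma adjusted p = 0.0865). It passed after quantile normalization, at 0.0398, and without wild-type pool 1, at 0.0276. The related smad1 was lower, at 4.42 and 4.40 in the wild-type pools and 4.11, 3.86 and 3.82 in the transgenic pools, a change of -0.48 (SE 0.17, limma adjusted p = 0.0965). The genes smad2 and smad3a carry TGF-beta and activin signals. In smad2 the change was -0.05 (SE 0.28, limma adjusted p = 0.934), and in smad3a -0.58 (SE 0.17, limma adjusted p = 0.0591), the latter without overlap and passing without wild-type pool 1, at 0.0338. Of the secreted antagonists, nog3 had 4.52 and 4.39 against 4.05, 4.12 and 4.07, a change of -0.37 (SE 0.15, limma adjusted p = 0.144), and chrd, nog1 and nog2 did not reach the filter.

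The Hedgehog ligand gene shha fell. Its transgenic values lay little above the background bounds of 3.95, 3.72 and 3.74 in pools 1, 2 and 3, so its fold is imprecise. It read 5.43 and 5.62 in the wild-type pools and 4.28, 4.15 and 4.23 in the transgenic pools, and both groups were tight and far apart. The mean was 5.52 ± 0.13 (SD, n = 2) over the wild-type pools and 4.22 ± 0.07 (SD, n = 3) over the transgenic pools, a change of -1.30 (SE 0.17, limma adjusted p = 0.00460) or 2.47-fold lower, and shha passed under all settings tried. The ligand gene ihha, whose mammalian counterpart is the Hedgehog of the intestinal epithelium, was under the filter, with 3.38 and 3.52 in the wild-type pools and 4.18, 3.91 and 3.70 in the transgenic pools. Its transgenic values were above both wild-type values, both at the background, and it did not pass without a filter (change 0.48, adjusted p = 0.164). The ligand genes ihhb and shhb were at or below the bound throughout.

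The transducer gene smo was at 4.05 and 4.75 in the wild-type pools and 4.26, 4.07 and 3.96 in the transgenic pools, with overlap and a change of -0.30 (SE 0.25, limma adjusted p = 0.463). All 4 Gli genes stayed under the filter, at 3.04 to 4.14. Of these gli3 had 3.98 and 4.12 against 3.49, 3.51 and 3.36, the transgenic values all at the background, and passed by limma without a filter with a change of -0.59 and an adjusted p of 0.0438. Wild-type pool 2, at 4.12, was also under its bound of 4.13, so only wild-type pool 1 read gli3 above the bound and no fold is given. The general Hedgehog target gli1 was at or below the bound in every pool.

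**Figure D3:**
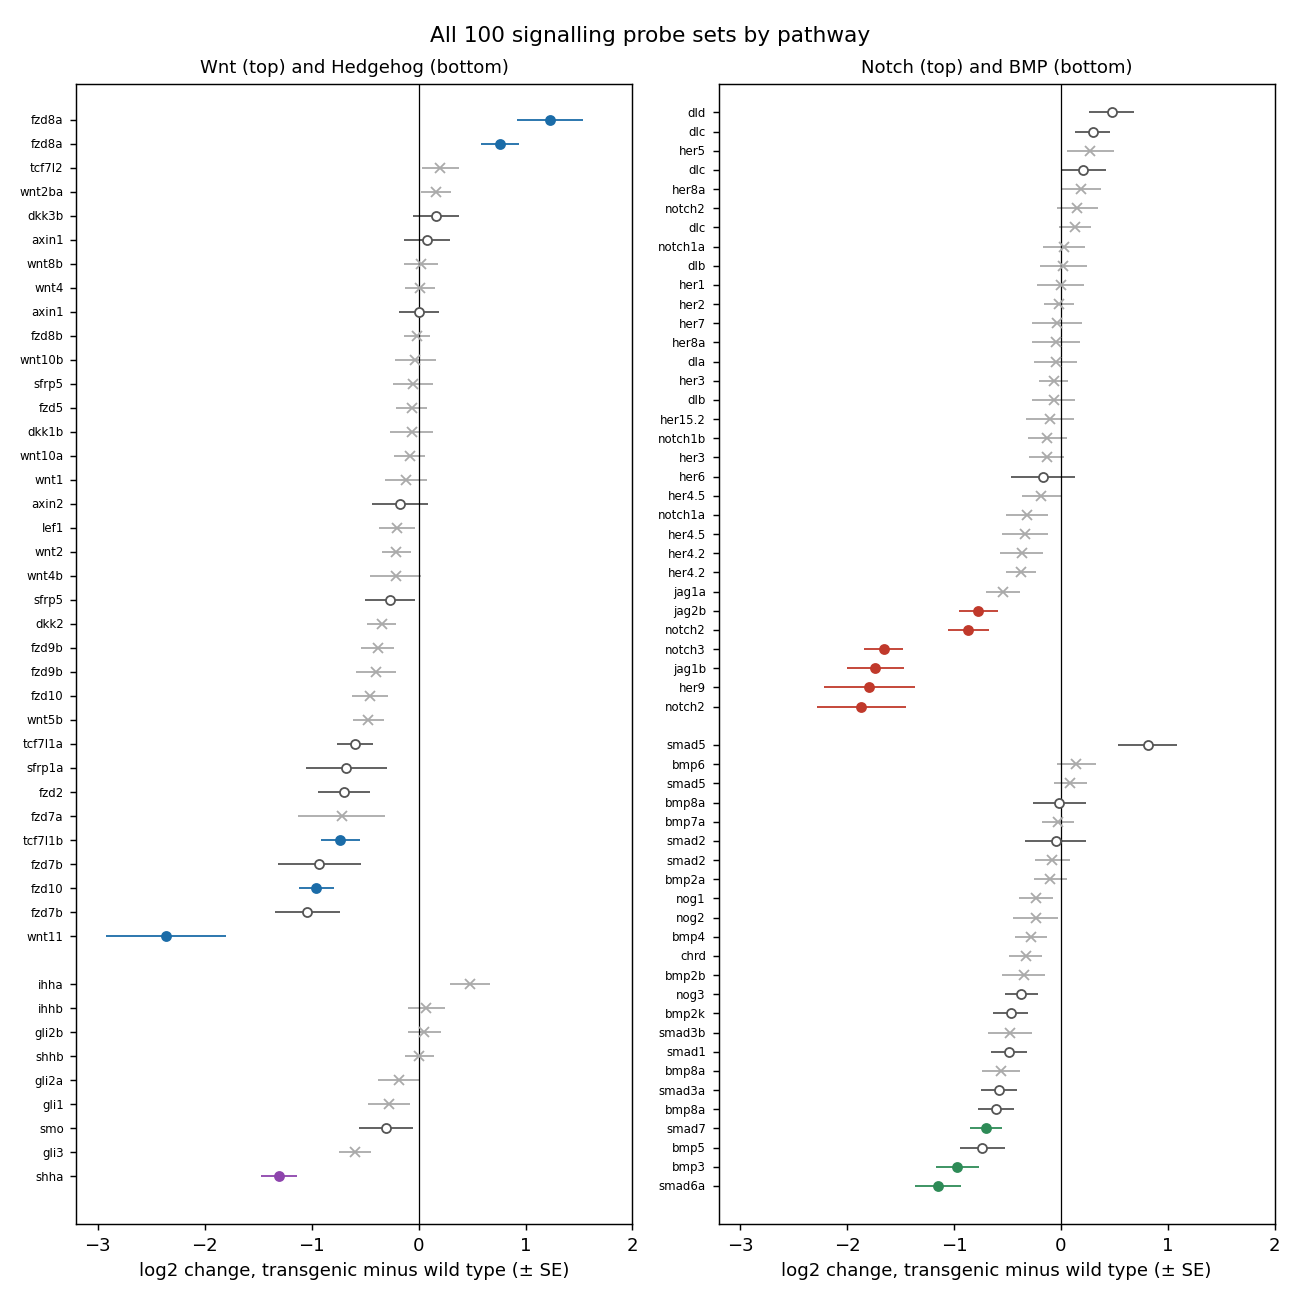
Log2 change with its SE for all 100 signalling probe sets, ordered within each pathway, with Wnt and Hedgehog on the left and Notch and BMP on the right. Filled coloured points passed the test, open circles were tested without passing, and grey crosses were under the filter, with the SE of the model without a filter. The filled points lie to the left of 0 except the 2 of fzd8a, and the grey crosses cluster near 0 with a lean to the left.

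Further genes of the 4 pathways, from lists of 229 genes of which 112 had a probe set, gave 1 rise and 12 falls among 146 probe sets, or 8.90% in all, beside 14.5% of all probe sets. Falls made up 8.22% and rises 0.68%, beside 7.79% and 6.73% of all probe sets, so the share that fell lay near that of the whole array. In the BMP list of 49 probe sets 6 (12.2%) fell and none rose. Its 4 largest falls were the co-receptor gene rgma, the inhibitor of differentiation gene id4, the endothelial receptor gene acvrl1 and the BMP-binding gene twsg1a. The values of rgma were 7.33 and 6.23 in the wild-type pools and 3.68, 4.47 and 4.99 in the transgenic pools, without overlap, a change of -2.40 (SE 0.48, limma adjusted p = 0.0191). Transgenic pool 1 was under its background bound of 3.95, so the size of this change is imprecise. For id4, a direct BMP target, the change was -1.58 (SE 0.31, limma adjusted p = 0.0168), for acvrl1 -1.19 (SE 0.19, limma adjusted p = 0.00993) and for twsg1a -1.06 (SE 0.22, limma adjusted p = 0.0217). The target genes id1 and id3, singled out once their values were known, had changes in opposite directions without passing, at -1.53 (SE 0.59, limma adjusted p = 0.123) and 0.85 (SE 0.40, limma adjusted p = 0.190). With 1 pool left out, id3 passed without wild-type pool 1, at 0.0282 with a change of 1.45, and id1 did not pass, at 0.0552 to 0.399. A second probe set of rgma and of twsg1a stayed under the filter, with changes of -0.20 and -0.23.

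Of 45 probe sets in the Wnt list 4 (8.89%) fell and none rose, beside 7.79% lower and 6.73% higher among all probe sets. These probe sets were of sox9b, a transcription factor gene often counted as a Wnt target at -1.66 (SE 0.28, limma adjusted p = 0.0113), ctnnb1, which encodes beta-catenin, with its dimmer probe set at -1.26 (SE 0.31, limma adjusted p = 0.0352), the polarity gene prickle1b at -1.01 (SE 0.17, limma adjusted p = 0.0109) and the secreted inhibitor wif1 at -0.82 (SE 0.18, limma adjusted p = 0.0246). In this ctnnb1 probe set the values were 6.86 and 6.40 in the wild-type pools and 4.93, 5.58 and 5.60 in the transgenic pools, and its call was lost whichever pool was left out, with adjusted p of up to 0.114. A brighter probe set of ctnnb1 did not pass, at 8.82 and 8.51 in the wild-type pools and 7.76, 8.17 and 8.20 in the transgenic pools, a change of -0.62 (SE 0.26, limma adjusted p = 0.143). The 2 probe sets of ctnnb1 thus differed in the call, and a second one of sox9b, under the filter, had a change of -0.07 with overlap. Of 30 probe sets in the Notch list 1 (3.33%) fell, that of the target gene hey1. It read 4.90 and 4.58 in the wild-type pools and 3.74, 3.64 and 3.77 in the transgenic pools, a change of -1.02 (SE 0.17, limma adjusted p = 0.0113). Transgenic values of hey1 were under the background bound in pools 1 and 2 and just over it in pool 3. Those of wif1, at 3.83, 3.72 and 3.75, were under it in pool 1 and just over it in pools 2 and 3. The size of both changes is therefore imprecise.

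In the Hedgehog list of 22 probe sets 1 rose and 1 fell (4.55% each), and neither encodes a component of the pathway. The gene nkx2.3, a homeobox factor of gut mesenchyme, read 3.82 and 3.68 in the wild-type pools and 6.63, 6.02 and 5.62 in the transgenic pools, a change of 2.34 (SE 0.32, limma adjusted p = 0.00527), or 5.07-fold higher. Both wild-type values of nkx2.3 lay near the background, just over the bound of 3.64 in pool 1 and under that of 4.13 in pool 2. Its fold is therefore imprecise. The gene foxa2, a forkhead factor of endoderm and of other Hedgehog responding cells, read 7.11 and 6.30 in the wild-type pools and 4.53, 4.83 and 4.96 in the transgenic pools, a change of -1.93 (SE 0.31, limma adjusted p = 0.00895). Both passed under all settings tried. The call was lost without transgenic pool 2 for acvrl1, twsg1a, id4, sox9b, prickle1b, wif1 and hey1, at 0.0606, 0.116, 0.0519, 0.0555, 0.0927, 0.140 and 0.0779. It was lost without wild-type pool 1 for rgma and twsg1a, at 0.0909 and 0.0727, and without transgenic pool 1 or 3 for wif1, at 0.0538 and 0.0701.

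Markers of several cell types differed between the groups in the same pools. Of 15 measured squamous epithelium markers 14 fell and none rose, and the log2 of their summed level was 12.2 to 12.8 in transgenic and 14.3 to 14.4 in wild-type pools. Of 13 striated muscle markers 1 fell, with summed levels of 10.4 to 13.8 against 14.7 in both wild-type pools, and of 8 fibroblast and matrix markers 3 fell, with 9.22 to 11.9 against 12.9 to 13.0. Of 9 leukocyte markers 3 fell, with 11.02 to 11.71 against 12.54 to 12.92, and of 10 neuron and glia markers 4 fell, with 7.3 to 7.8 against 9.0. In contrast, all 12 intestinal absorptive markers rose, with 15.1 to 15.4 against 8.64 to 9.06, as did 12 of 13 exocrine pancreas markers, with 15.95 to 16.16 against 7.70 to 7.91, all 14 hepatocyte markers, with 14.60 to 14.96 against 7.36 to 7.68, and all 4 smooth muscle markers, with 11.1 to 11.6 against 8.60 to 9.50. In both wild-type pools 5 of the intestinal, 8 of the pancreas and 11 of the hepatocyte markers were at or below the background bound, among them chia.1, prss1 and fabp10a. Of 7 cartilage and bone markers none passed, with summed levels of 7.22 to 10.2 against 11.5 to 11.7, and neither did any of 4 erythrocyte or 9 oocyte and gonad markers. A summed level follows the brightest genes of a list, so it does not stand for every marker. The cartilage and bone sum rested mainly on col10a1a and spp1, and the leukocyte sum on cd74a, cd74b and lyz. The median log2 changes of these 2 lists were -0.21 and -0.99. No squamous or striated muscle marker was at the background in all pools of either group. The part of these differences in the signalling results was not tested.

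Pools of the transgenic group differed among themselves in a like way for some signalling genes and some marker lists. Over the wild-type mean, wnt11 was at -3.13, -2.20 and -1.76 in transgenic pools 1, 2 and 3, and the brighter notch2 probe set at -2.54, -1.78 and -1.28. The medians of the striated muscle list were -4.30, -1.82 and -1.11, those of the fibroblast and matrix list -3.05, -1.69 and -1.15, and those of the squamous list -2.66, -1.68 and -1.63. Transgenic pool 1 was thus the lowest for these 2 genes and these 3 lists. It was also lowest for the leukocyte, neuron and glia, cartilage and bone, erythrocyte, and oocyte and gonad lists, so a low pool 1 was not particular to those 3. Of the 13 signalling probe sets that fell, 8 were lowest in pool 1, 2 in pool 2 and 3 in pool 3. The matching share over all probe sets that fell was not counted. In contrast, shha, at -1.24, -1.37 and -1.29, and notch3, at -1.63, -1.56 and -1.78, were nearly level across the 3 pools. Transgenic values of these 2 genes lay little above the background bounds of 3.95, 3.72 and 3.74, where a difference between pools could be hidden. The brighter fzd8a probe set was at 1.62, 1.26 and 0.81, and nkx2.3 at 2.88, 2.27 and 1.87, both highest in pool 1. Pool 1 was also highest for the smooth muscle list, at 2.54, 2.35 and 2.02, and the intestinal list, at 5.89, 5.67 and 5.50. The exocrine pancreas and hepatocyte lists were highest in pool 1 too. A high pool 1 was thus not particular to the smooth muscle and intestinal lists.

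**Figure D4:**
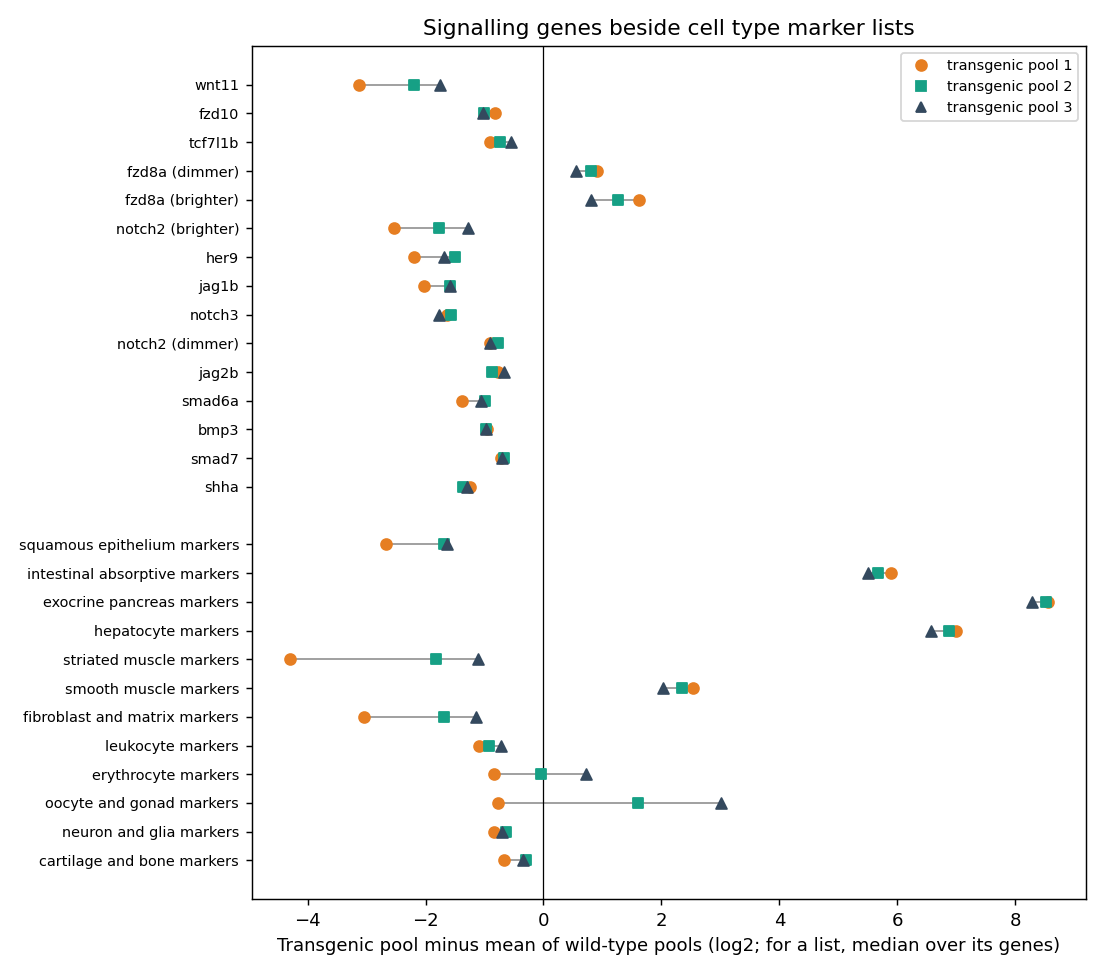
Log2 difference of each of the 3 transgenic pools from the wild-type mean, for the 15 signalling probe sets past the threshold and, below them, for 12 cell type marker lists as the median over their genes. In wnt11 and the brighter notch2 probe set pool 1 is lowest, as in the striated muscle, matrix and squamous lists. It is also lowest in the leukocyte, neuron and glia, cartilage and bone, erythrocyte, and oocyte and gonad lists. In contrast, shha, bmp3 and notch3 differ little between the pools, with shha and notch3 little above the background bound there.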

How the data were processed

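The table held log2 expression values deposited by the authors, 1 for each probe set on each array. The submitters' processing notes name MAS5, while the sources used here do not give its version, scaling or log step. The log2 base was read from the range of the values, 2.23 to 13.58, and every array had a mean of 4.89. If the base were another, folds would change and tests would not. Depth does not apply to arrays, and their number limits the precision.

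Symbols came from GEO's platform annotation and all 100 were unchanged in a RefSeq gene table of the assembly GRCz12tu. A further 5 matching probe sets with several symbols were left out, as were 115 control probe sets. No sequence or coordinate was used here.

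Pools were compared with limma 3.58.1 in R 4.3.3 (lmFit, eBayes with a trend, two-sided, Benjamini-Hochberg over 10335 probe sets, threshold 0.05, no covariate, no further normalization). The procedure was also run on simulated data with independent values and a small set of large changes. These data differ in both respects, so that run does not show how sound the calls here are. Alternatives comprised 13 settings (quantile normalization, median centring, no filter, a 60th percentile filter, no trend, a robust trend, a replicate block, a threshold of 0.1 and each pool left out) and 2 chosen after seeing the data (probe sets above the background in a whole group, 1 probe set a gene). The genes and lists were chosen with earlier results of these data known. Any signalling probe set could be named, with all past the threshold and up to 6 others in each pathway by size of change, and of the further genes up to 4 past the threshold in each pathway and direction. The background bound was chosen after the values were seen. Folds with a whole group at or below it are given as at least N-fold, against the mean bound of that group.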

Additional observations from a re-analysis of the deposited data

How the results depend on the processing

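The 13 signalling probe sets that fell became 21 at a threshold of 0.1 and 8 with the replicate block, and ranged from 3 to 15 with 1 pool left out. The 2 that rose became 3 at 0.1, 1 with the replicate block, 1 with the 60th percentile filter and 1 with 1 probe set a gene, and ranged from 0 to 2 with 1 pool left out. By pathway, the 5 Wnt, 6 Notch, 3 BMP and 1 Hedgehog probe sets that passed ranged from 0 to 6, 2 to 5, 0 to 6 and 1 to 1 with 1 pool left out. At 0.1 there were 8 Wnt and 9 BMP, while 3153 passed over all probe sets, against 2250 in the main fit. With the replicate block there were 3 Wnt and 1 BMP, while 1866 passed over all probe sets. In addition, the 60th percentile filter gave 2 BMP, no filter gave 2 Hedgehog, and probe sets above the background in a whole group, a restriction chosen after seeing the data, gave 6 BMP. Over all probe sets, 2141, 2023 and 2388 passed under these settings, in that order, and 2029 with 1 probe set a gene. Of the further pathway genes, the 1 that rose became 3 at 0.1 and 2 with the 60th percentile filter (1 to 3 with 1 pool left out), and the 12 that fell became 18 at 0.1 and 8 with the 60th percentile filter (2 to 22 with 1 pool left out). Over all probe sets, 2250 passed, with 979 to 2614 when 1 pool was left out.

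Of 15 signalling probe sets past the threshold, 3 passed under all alternatives, those of notch3, jag1b and shha, and none of the named probe sets changed direction while called. Besides the losses given gene by gene above, the replicate block ended the calls of jag2b, tcf7l1b, the dimmer fzd8a probe set and the notch2 probe set with the smaller fall. Among the further genes named it ended those of prickle1b and wif1. Of the further BMP genes, id1, which had not passed, did so with the replicate block, at an adjusted p of 0.0215 (limma). Deviations from the group means correlated across genes at r = -0.25 between the pools numbered 1 and at r = -0.13 between those numbered 2. The deviations of the 2 wild-type pools mirror each other. These correlations therefore cannot decide whether the replicate numbers pair the pools. Fits that leave out 1 wild-type pool assume that the lone pool varies like the transgenic ones. Scaling moved the median of all probe sets from -0.07 to -0.06 after quantile normalization and -0.02 with median centring.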

Other observations

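The oocyte gene bmp15, which the choice of genes left out, varied among the transgenic pools. Its brighter probe set read 3.83 and 4.17 in the wild-type pools and 3.84, 4.20 and 5.39 in the transgenic pools, with transgenic pool 3 highest, a change of 0.47 (SE 0.46, limma adjusted p = 0.535). The TGF-beta family gene gdf3, on the list of further BMP genes and chosen after its values were seen, read 3.82 and 4.16 in the wild-type pools and 3.47, 5.34 and 7.32 in the transgenic pools, a change of 1.39 (SE 1.02, limma adjusted p = 0.406). The medians of 9 oocyte and gonad markers were 5.25 and 5.20 in the wild-type pools and 3.66, 6.92 and 8.34 in the transgenic pools. None of these 9 passed the test, and the order of the 3 transgenic pools was the same in gdf3, bmp15 and the marker median.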
